A study of Mus musculus with 6 samples.

Results

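Bst1 and 5 other genes for enzymes whose catalytic domain faces the outside of the cell (Cd38, Entpd1, Nt5e, Enpp1 and Aoc3) were followed across 3 subsets of thymic endothelial cells (ECs). They were chosen by name, as the NAD and adenosine ectoenzymes and the leukocyte-binding amine oxidase, and are 6 of 24457 genes measured. Of the 6, 5 lay above the filter on low values (FPKM of at least 1 in at least 2 of 6 libraries) that was applied before testing. Enpp1 did not.

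The study asked how the thymic ECs through which progenitor cells leave the blood differ from other thymic ECs. All mice were wildtype C57BL/6 females, aged 4 to 6 weeks by the sample labels, and this genotype, strain and sex was shared by every group. The paper's methods give a slightly older range for mice not described otherwise. CD31+CD45-EpCAM- cells were sorted, at a stated purity of at least 90%, into type I (Ly6C+Selp-), type II (Ly6C+Selp+) and type III (Ly6C-Selp+) ECs, where Ly6C is a surface protein of many ECs and Selp is P-selectin, an adhesion receptor for leukocytes. For each subset 2 RNA-seq libraries were deposited, 6 in all. The labels do not say whether the 2 libraries of a subset came from separate mice or whether mice were pooled, so p-values measure only the spread between these libraries.

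Ectoenzymes change small molecules in the space around the cell. Bst1 (CD157, held in the membrane by a lipid anchor) and Cd38 are related NAD-consuming enzymes that form cyclic ADP-ribose and ADP-ribose, and both are also known as leukocyte surface antigens. Entpd1 (CD39) splits extracellular ATP and ADP to AMP, Nt5e (CD73) splits AMP to adenosine, and Enpp1 splits ATP to AMP and pyrophosphate; on ECs this chain lowers a signal that activates platelets and leukocytes and raises one that calms them. Aoc3 (vascular adhesion protein 1) is a copper amine oxidase that supports leukocyte binding to vessels and is also made by smooth muscle.

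Expression is given as FPKM, fragments per kilobase of transcript scaled to the depth of the library, which is per length and so allows levels of different genes to be compared. The deposited tables give no counts. Fragments behind a value were estimated from the width of its interval and are approximate: they summed to between 1452476 and 2423171 per library, and 3 fragments stood for a median FPKM of 0.404 to 0.716. Selp and Ly6c1 followed the labels, with a mean Selp of 6.54 FPKM in type I and 591 in type III ECs, and a mean Ly6c1 of 851 and 79.7 FPKM. Ly6c1 can share reads with its near copy Ly6c2. Ly6c2 was low and did not follow the labels, with means of 3.26, 1.30 and 4.05 FPKM in type I, type II and type III ECs. All 9 endothelial markers were detected in each library, with summed FPKM from 1929 to 2747. Cldn5 and Kdr were lower in type III than in type I ECs in limma (means 29.4 against 387 FPKM, adjusted p = 0.00025, and 66.8 against 189 FPKM, adjusted p = 0.0079). Cldn5 was also lower in type III than in type II ECs (limma, adjusted p = 0.041). Ptprc, which encodes CD45, was read at 2.88 to 28.9 FPKM although CD45+ cells had been sorted away. Summed myeloid markers were higher in replicate 1 than in replicate 2 of every subset (229.7 and 30.8 FPKM in type I, 79.6 and 32.0 in type II, 386.4 and 65.8 in type III). In both replicates the sum was also higher in type III than in type I ECs. The median log2 difference of these markers there was 0.78, against 0.08 over all tested genes. None of the 7 myeloid markers above the filter passed the test in any comparison.

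Bst1 rose in both Selp+ subsets relative to type I ECs, and its log2 difference between type III and type I ECs was the largest of the 5 tested enzymes. Its FPKM was 1.04 and 1.67 in the 2 type I libraries, 12.4 and 15.0 in the type II libraries, and 50.5 and 48.5 in the type III libraries. The 3 subsets did not overlap, and the replicates within each lay close together: 1.36 ± 0.44, 13.7 ± 1.8 and 49.5 ± 1.5 FPKM (mean ± SD, n = 2). The lowest values rested on about 7 and 14 fragments and the highest on about 232 and 400.

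Between type III and type I ECs the mean Bst1 FPKM differed 36.4-fold, 48.4-fold within replicate 1 and 28.9-fold within replicate 2. On the log2(FPKM + 1) scale, which understates changes of genes with low values, the difference was 4.43 (95% interval 3.80 to 5.07, SE 0.28), with a Benjamini-Hochberg adjusted p of 7.32e-05 from limma, over 11717 genes. Bst1 was the only one of the 5 tested enzymes to pass the threshold of 0.05 here, where 4.14% of all tested genes passed. The study had already named Bst1 as preferentially expressed in type III ECs. It used these same libraries, so the result here is not independent of that report. In bulk RNA, more cells with the transcript and more transcript per cell cannot be told apart.

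Type II ECs, which carry both markers, held an intermediate level of Bst1. Against type I ECs the mean FPKM was 10.1-fold higher and the log2 difference 2.65 (95% interval 2.01 to 3.29), at a limma adjusted p of 0.00585, and Bst1 was again the only enzyme of the 5 to pass, against 0.393% of all tested genes. Without type II replicate 2 the difference was 2.52 and no longer passed (limma, adjusted p = 0.070). From type II to type III ECs the fold of the means was 3.61 and the log2 difference 1.78 (95% interval 1.15 to 2.42), which just missed the threshold with an adjusted p of 0.053 in limma. None of the 5 enzymes passed in that comparison, where 0.222% of all tested genes did. It passed there in 4 of 16 alternatives, with a filter of FPKM of at least 5, with the replicate number as a block (limma, adjusted p = 0.0103) and without either type I library (limma, adjusted p = 0.029 and 0.034), and its adjusted p over all of them ran from 0.0103 to 0.359. The 3 comparisons share libraries and are not independent of each other.

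Bst1 is also a myeloid antigen, so its levels were set beside the myeloid markers. Replicates 1 and 2 held 229.7 and 30.8 FPKM of the summed markers and 1.04 and 1.67 of Bst1 in type I ECs, 79.6 and 32.0 of the markers and 12.4 and 15.0 of Bst1 in type II ECs, and 386.4 and 65.8 of the markers and 50.5 and 48.5 of Bst1 in type III ECs. In type I, type II and type III ECs, B cell markers summed to 4.58 and 3.15, 5.19 and 0.240, and 14.55 and 8.08 FPKM. Lymphatic markers summed to 3.94 and 1.92, 5.17 and 2.85, and 22.0 and 6.37 FPKM in the same order. Both sums were highest in type III ECs, and the mural sums given with Aoc3 were lowest there. No B cell or lymphatic marker passed in any comparison. The part of any of these cells in the Bst1 values was not tested.

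**Figure D1:**
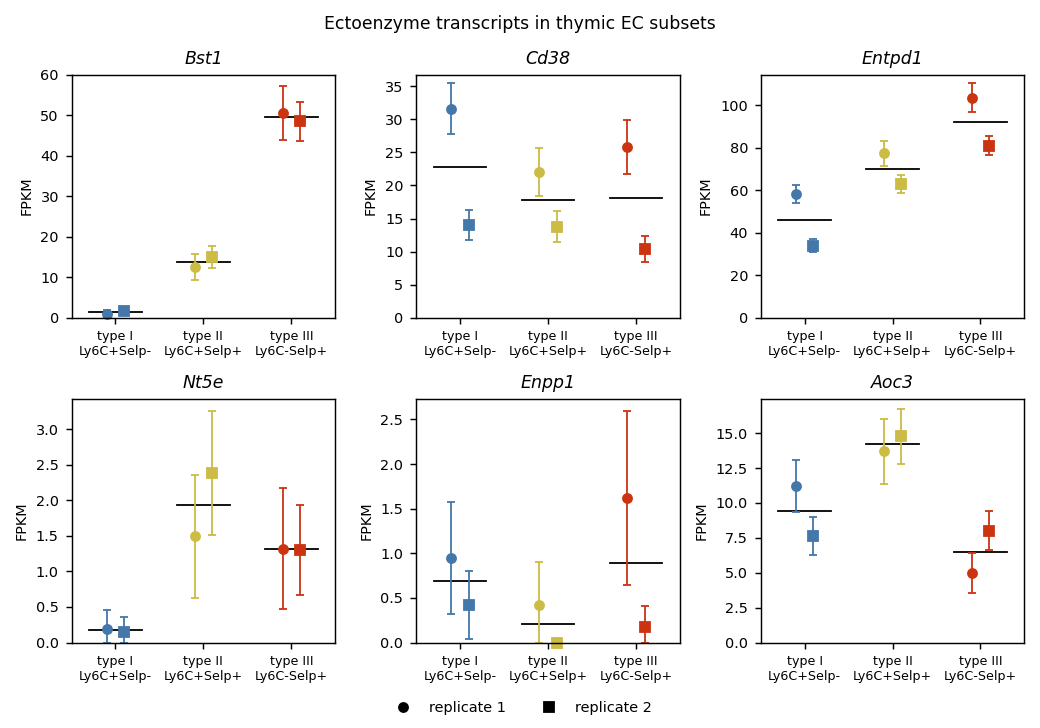
FPKM of the 6 ectoenzyme genes in each library, by subset, on linear axes from 0. Points are libraries with the interval Cufflinks gives, and lines are means of 2 libraries. Bst1 climbs from 1.04 and 1.67 to 50.5 and 48.5 FPKM, Entpd1 is the highest of the 6 throughout, and Cd38 splits by replicate and not by subset.

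Cd38, the related enzyme whose gene lies close to Bst1, showed no such order of subsets. In the genome build of the files (mm9), Bst1 lies on the plus strand of chromosome 5 from 44210132 to 44234707 and Cd38 on the same strand from 44260066 to 44303613, 25.4 kb apart. Cd38 was read at 31.6 and 13.97 FPKM in type I ECs, 22.0 and 13.8 in type II ECs, and 25.8 and 10.5 in type III ECs. Each subset overlapped the others, and in each replicate 1 was the higher library.

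The log2 difference in Cd38 between type III and type I ECs was -0.33 (95% interval -1.43 to 0.76), between type II and type I ECs -0.26 (95% interval -1.36 to 0.84), and between the Selp+ subsets -0.07 (95% interval -1.17 to 1.03). The adjusted p from limma was 0.857, 0.997 and 0.982. The replicates of Cd38 differed by more than the subset means did, and the sign of each difference turned in 2 of the fits that left out a library. Cd38 is also made by lymphocytes and myeloid cells, whose markers were higher in replicate 1 as well: summed T cell markers were 116.1 and 31.0 FPKM in type I, 79.6 and 49.0 in type II, and 205.9 and 92.9 in type III ECs. The FPKM of all genes also summed higher in replicate 1, to 299303 and 221458 in type I, 261233 and 229036 in type II, and 300932 and 272220 in type III ECs. The part of these cells or of the library sums in the Cd38 values was not tested.

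The ratio of Bst1 to Cd38 within a library does not depend on how libraries are scaled to each other. It was 0.0331 and 0.120 in type I ECs, 0.566 and 1.09 in type II ECs, and 1.96 and 4.63 in type III ECs. The subsets did not overlap, and Bst1 exceeded Cd38 in both type III libraries and in neither type I library. The ratio was higher in replicate 2 of each subset.

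The genes whose levels were most like those of Bst1 over the 6 libraries, by Pearson correlation of log2(FPKM + 1) among 3204 genes, were Kank1 (r = 0.997), Fgf23 (0.994), Man1a (0.994), Vwf (0.993) and Serpina3f (0.989). The points share the 3 subsets, so these values describe a common order of subsets. The 3204 candidates had a mean of at least 5 FPKM in their highest subset and a log2 range of at least 1. They were thus picked for varying in these same libraries. Vwf, which encodes von Willebrand factor and is a marker of venous and activated endothelium, had means of 16.7, 211 and 882 FPKM from type I through type II to type III ECs. Fgf23, a phosphate-regulating hormone best known from bone, had means of 0.229, 31.8 and 163.6 FPKM. Kank1, an actin-regulating adaptor, had means of 7.04, 23.0 and 49.8 FPKM. Serpina3f belongs to a cluster of close copies, and its reads may have been split between them.

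Entpd1 was the most abundant of the 6 transcripts in all 6 libraries. It was read at 58.2 and 34.0 FPKM in type I ECs, 77.4 and 62.9 in type II ECs, and 103.7 and 81.1 in type III ECs, or 46.1 ± 17.2, 70.2 ± 10.3 and 92.4 ± 16.0 FPKM (mean ± SD, n = 2). The subsets did not overlap, and replicate 1 was the higher library in each, as it was for the myeloid and T cell markers given above. Within each replicate, those marker sums were also higher in type III than in type I ECs, as Entpd1 was. Leukocytes also make Entpd1, and the FPKM of all genes summed higher in replicate 1 of each subset too, as given for Cd38. The part of either in these values was not tested. In mm9 Entpd1 lies on the plus strand of chromosome 19 from 40734284 to 40816092. Its mean over the 6 libraries lay at percentile 95.2 of tested genes, against 82.2 for Bst1, 80.4 for Cd38, 64.3 for Aoc3 and 7.6 for Nt5e.

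The mean Entpd1 FPKM in type III ECs was 2.00-fold that in type I ECs, 1.78-fold within replicate 1 and 2.39-fold within replicate 2. The study lists Entpd1 among the genes that differed between type I and type III ECs in Cuffdiff. Here the log2 difference of 1.03 (95% interval 0.34 to 1.71) did not pass in limma (adjusted p = 0.119). It did pass after each of 3 rescalings of the libraries (log2 differences 0.89 to 0.93, limma adjusted p from 0.023 to 0.032), with the replicate number as a block (adjusted p = 0.011 in limma), and without type I replicate 1 (1.41, limma adjusted p = 0.029), where type I has 1 library that is assumed to vary like the other subsets, and its adjusted p over all alternatives ran from 0.0113 to 0.575. The smaller steps, 0.64 (95% interval -0.05 to 1.32) from type I to type II ECs and 0.39 (95% interval -0.30 to 1.07) between the Selp+ subsets, passed in none of the alternatives.

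Nt5e, which makes adenosine from the AMP that Entpd1 leaves, was near the limit of detection in type I ECs and low elsewhere. It was read at 0.188 and 0.151 FPKM in type I ECs, about 2 fragments in each library, at 1.49 and 2.39 in type II ECs, and at 1.32 and 1.30 in type III ECs. All 4 Selp+ libraries lay above both type I libraries. Nt5e lies on chromosome 9 from 88222447 to 88266927, plus strand, in mm9, and it passed the filter only through the Selp+ subsets.

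Pooling the estimated fragments, the ratio of Nt5e to its level in type I ECs was 12.2 in type II ECs (95% counting interval 4.41 to 46.7) and 7.89 in type III ECs (95% counting interval 2.75 to 31.0), and these intervals cover counting error only. The log2 differences were 1.31 (95% interval 0.46 to 2.17) and 0.98 (95% interval 0.12 to 1.84), and neither passed in limma (adjusted p = 0.301 and 0.267). Between the Selp+ subsets the difference was -0.33 (95% interval -1.19 to 0.52), with the type III libraries the lower. Of the 8 mural cell markers, Acta2 and Myh11, made by smooth muscle cells and singled out after their values were seen, had higher means in both Selp+ subsets than in type I ECs, and neither passed in any comparison: Acta2 was 13.7 and 7.54 FPKM in type I, 29.5 and 37.0 in type II, and 16.9 and 33.8 in type III ECs. The other 6 had lower means in type III than in type I ECs, and the median log2 difference of the 8 from type I ECs was -0.03 in type II and -1.65 in type III ECs. Their part in the Nt5e values was not tested.

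Entpd1 exceeded Nt5e in every library. The ratios were 309 and 225 in type I, 51.9 and 26.4 in type II, and 78.8 and 62.3 in type III ECs. The type I ratios rest on about 2 fragments of Nt5e each. Alpl, an alkaline phosphatase that can also split AMP, was not counted in these ratios. It was read at 12.5 and 11.8 FPKM in type I, 6.34 and 9.495 in type II, and 1.34 and 0.334 in type III ECs. Enpp1 was at or near the detection limit, with 0.948 and 0.422 FPKM in type I, 0.417 and 0 in type II, and 1.62 and 0.171 in type III ECs. The highest of these stood for about 11 fragments, so no fold is given. Enpp1 lies on the minus strand of chromosome 10 from 24361217 to 24431908 (mm9).

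**Figure D2:**
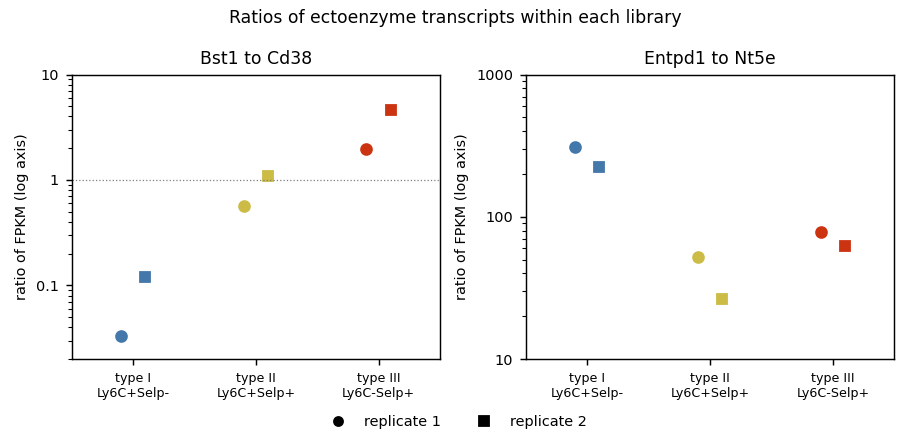
Ratio of FPKM within each library, on log axes, for Bst1 to Cd38 and for Entpd1 to Nt5e, by subset, with circles for replicate 1 and squares for replicate 2. Bst1 to Cd38 goes from 0.0331 and 0.120 to 1.96 and 4.63 without overlap, and Entpd1 to Nt5e is highest in type I ECs, at 309 and 225.

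Aoc3 was highest in the subset that carries both markers. It was read at 11.2 and 7.66 FPKM in type I ECs, 13.7 and 14.8 in type II ECs, and 4.98 and 8.01 in type III ECs. Its gene lies on the plus strand of chromosome 11 from 101191920 to 101200744 (mm9). Both type II libraries lay above the other 4, while type I and type III ECs overlapped. The log2 difference between the Selp+ subsets was -1.05 (95% interval -1.78 to -0.32), a mean FPKM 0.456 times as high in type III ECs, and did not pass in limma (adjusted p = 0.292, 0.117 to 1 over the alternatives). The other differences were 0.57 (95% interval -0.16 to 1.30) for type II and -0.49 (95% interval -1.22 to 0.24) for type III against type I ECs.

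Aoc3 is also made by the smooth muscle and pericytes around vessels, so their markers were set beside it. The 8 mural cell markers summed to 552.8 and 227.7 FPKM in type I, 479.4 and 322.5 in type II, and 102.2 and 158.2 in type III ECs. Rgs5 made up much of the type I sums, at 346.4 and 113.9 FPKM. In limma 3 of the 8 (Pdgfrb, Notch3 and Kcnj8) fell between type I and type III ECs, where 4.14% of all tested genes passed. Acta2 and Myh11 had higher means in type III ECs (25.4 and 23.9 FPKM) than in type I ECs (10.6 and 13.5) without passing, and the others had lower ones. The 5 fibroblast markers summed to 164.8 and 98.9, 304.0 and 169.8, and 111.6 and 113.7 FPKM, and none passed. No marker of either list was at 0 in all libraries, and the part of these cells in the Aoc3 values was not tested.

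**Figure D3:**
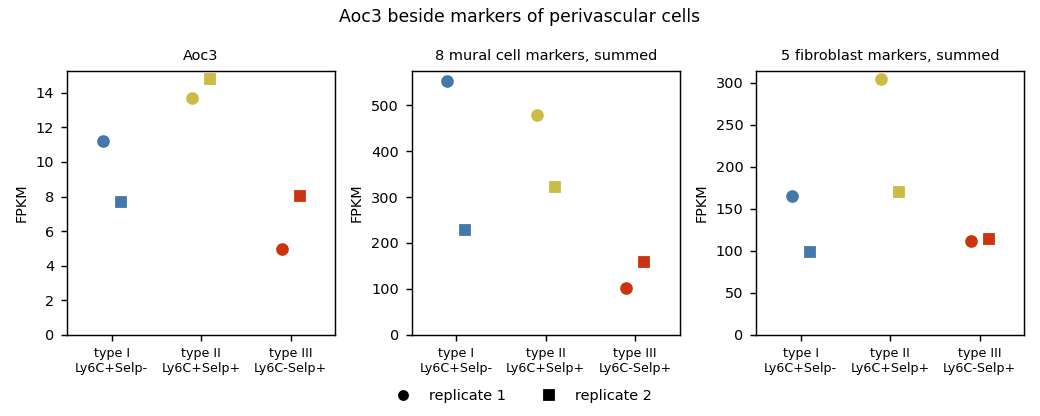
FPKM of Aoc3, of 8 mural cell markers summed and of 5 fibroblast markers summed, in each library by subset, on linear axes from 0, with circles for replicate 1 and squares for replicate 2. The sum of the mural markers is lowest in type III ECs, at 102.2 and 158.2 FPKM, where Aoc3 is 4.98 and 8.01. Aoc3 and the sum of the fibroblast markers are highest in type II ECs.

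Counting by order alone, 3 of the 5 tested enzymes did not overlap between type III and type I ECs (Bst1, Entpd1 and Nt5e), and 37.9% of all tested genes did not, in either direction. For type II against type I ECs it was 4 of 5, against 33.6% of all tested genes, and for the Selp+ subsets 4 of 5, against 41.0%. Nt5e, which passed the filter only through the Selp+ subsets, is among those that did not overlap in both comparisons against type I ECs; without it they were 2 of 4 and 3 of 4. The order of the enzymes by FPKM was Entpd1, Cd38, Aoc3 and Bst1 in both type I libraries and Entpd1, Bst1, Cd38 and Aoc3 in both type III libraries. In type II ECs the libraries differed: Cd38, Aoc3 and Bst1 followed Entpd1 in replicate 1, and Bst1, Aoc3 and Cd38 in replicate 2, within 12.4 to 22.0 FPKM.

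**Figure D4:**
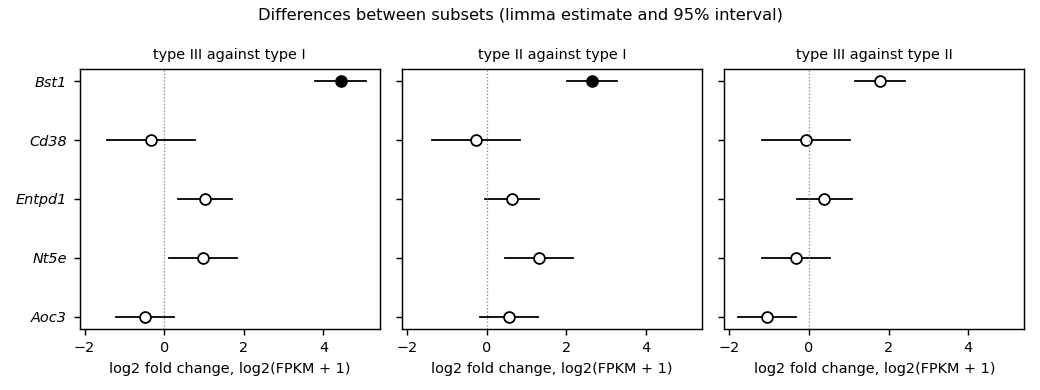
Differences of log2(FPKM + 1) for the 5 tested enzymes in the 3 comparisons, with the 95% interval from limma, filled where the adjusted p was under 0.05. Bst1 is filled in the comparisons against type I ECs (4.43 and 2.65), and its interval between the Selp+ subsets runs from 1.15 to 2.42.

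The sequence before the start of transcription was examined for the members in the RefSeq promoter table (GRCm38.p6, a later build than that of the FPKM files), which held 4 of the 6 genes with 5 start sites. It held neither Bst1, the only member to pass, nor Aoc3. The 250 bases before the start are shown for Entpd1, with 2 start sites, and Nt5e, whose Selp+ libraries all lay above the type I ones, and for Cd38, whose libraries did not separate. Capitals mark matches on either strand to the short motifs searched. These were GGANTTTCC for an NF-kB-like site, CCGGAA for an ETS-like site, ACAANG for a SOX-like site, CACCC for a KLF-like site, GATAA for a GATA-like site and TATAAA for a TATA box. All 4 windows lie on the plus strand, and a match is a description of the letters only.
Entpd1 first start site, chr19:40612116-40612365: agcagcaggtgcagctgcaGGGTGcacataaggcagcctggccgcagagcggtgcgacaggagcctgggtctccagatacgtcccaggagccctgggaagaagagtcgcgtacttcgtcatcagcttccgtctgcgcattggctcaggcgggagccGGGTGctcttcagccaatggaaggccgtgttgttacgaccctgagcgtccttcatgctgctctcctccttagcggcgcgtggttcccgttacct
Entpd1 second start site, chr19:40659520-40659769: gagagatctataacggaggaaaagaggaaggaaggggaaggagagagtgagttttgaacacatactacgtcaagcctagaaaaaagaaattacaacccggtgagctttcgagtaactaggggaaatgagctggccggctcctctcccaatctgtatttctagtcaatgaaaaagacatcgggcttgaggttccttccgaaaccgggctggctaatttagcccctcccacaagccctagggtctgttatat
Nt5e, chr9:88327359-88327608: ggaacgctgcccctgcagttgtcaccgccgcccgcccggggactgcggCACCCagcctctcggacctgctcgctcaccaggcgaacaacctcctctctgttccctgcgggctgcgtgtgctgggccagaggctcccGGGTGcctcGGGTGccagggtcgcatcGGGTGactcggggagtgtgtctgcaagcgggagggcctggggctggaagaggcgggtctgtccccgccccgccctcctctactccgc
Cd38, chr5:43868559-43868808: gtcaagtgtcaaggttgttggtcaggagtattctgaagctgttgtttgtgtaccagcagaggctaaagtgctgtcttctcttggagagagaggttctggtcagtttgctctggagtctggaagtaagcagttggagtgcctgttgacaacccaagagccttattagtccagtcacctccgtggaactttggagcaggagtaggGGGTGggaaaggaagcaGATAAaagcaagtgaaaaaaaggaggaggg

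The matches were 2 CACCC in the first Entpd1 window, none in the second, 4 CACCC for Nt5e, and 1 CACCC and 1 GATAA for Cd38. CACCC occurs in 52.0% and GATAA in 22.6% of the 32851 promoters of the table over the same window, and ACAANG in 36.3%, TATAAA in 12.4%, GGANTTTCC in 1.07% and CCGGAA in 3952 promoters. The Nt5e window was 72.0% G and C, against 48.8% for Cd38 and 62.4% and 47.2% for the Entpd1 windows.

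The other genes of these pathways, from lists written with earlier results of these data known, mostly did not pass between type III and type I ECs. Of all tested genes 4.14% passed there. Of 15 tested genes for ADP-ribosylation and NAD supply besides Bst1 and Cd38, 1 rose and 2 fell (median log2 difference 0.23, against 0.08 over all tested genes). Art4, an ADP-ribosyltransferase family member that carries the Dombrock blood group, rose from 0.730 and 0 FPKM to 6.74 and 5.92 (log2 difference 2.48, limma adjusted p = 0.00946), but it passed the filter on low values only through the type III libraries, where it is high. Art3, a relative of Art4, fell from 18.5 and 11.1 to 0.986 and 2.09 FPKM (-2.63, limma adjusted p = 0.0047). Nnmt, which methylates the nicotinamide that NAD enzymes release, fell from 4.25 and 2.04 FPKM to 0 and 0.344 (-1.78, limma adjusted p = 0.0432). It passed the filter only through the type I and type II libraries, where it is higher. Without Art4 and Nnmt, Art3 was the only gene of this list besides Bst1 to pass here. Nampt, which makes NAD precursor from nicotinamide, Nadk and Parp1 were the most abundant of the rest and did not pass, with log2 differences of 0.53, 0.15 and 0.43.

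Of 12 tested genes for extracellular nucleotide breakdown and nucleoside uptake besides the members, 2 fell and none rose (median 0.31). Over all tested genes 4.14% passed (median 0.08). Alpl, an alkaline phosphatase that can also split AMP at the cell surface, fell from 12.5 and 11.8 FPKM to 1.34 and 0.334 (-2.89, limma adjusted p = 0.00287). Slc28a2, a concentrating nucleoside carrier, fell from 14.2 and 9.51 FPKM to 2.40 and 1.26 (-2.19, limma adjusted p = 0.0138). Slc29a1, the equilibrative nucleoside carrier, was the most abundant, at 42.3 to 62.1 FPKM over all 6 libraries, and did not pass (0.30), nor did Pnp (0.57) and Enpp3 (-0.27).

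Among the receptors that sense these molecules, 9 of 18 lay above the filter, 2 of them fell and none rose (median 0.16). Over all tested genes 4.14% passed (median 0.08). Adora2a, an adenosine receptor that raises cyclic AMP, fell from 11.6 and 7.22 FPKM in type I ECs through 3.61 and 2.54 to 0.955 and 1.33 in type III ECs (-2.25, limma adjusted p = 0.00835). P2ry2, a receptor for ATP and UTP, fell from 25.5 and 24.1 FPKM through 12.5 and 12.4 to 1.91 and 4.25 (-2.72, limma adjusted p = 0.00219). Neither passed from type I to type II ECs. P2rx4, P2rx7, P2rx1 and P2ry6 did not pass, with log2 differences of 0.26, 0.16, 0.16 and 0.05. P2ry12, P2ry13 and P2ry14 did not pass either (0.40, 0.86 and 0.06) and were higher in replicate 1 of every subset, as the myeloid markers were, and the part of those cells was not tested.

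Of the 10 tested amine oxidases besides Aoc3, only Lox, which crosslinks collagen and elastin, passed. It rose from 1.27 and 0.978 FPKM to 12.8 and 11.8 (2.65, limma adjusted p = 0.0077). Smox, Loxl2 and Maoa, the most abundant others, had log2 differences of -0.21, -0.76 and -0.35 and did not pass. The list's median was -0.14, against 0.08 over all tested genes, of which 4.14% passed.

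Of 19 further surface ectoenzymes tested, 2 rose and 1 fell, Alpl, given above (median 0.12). Over all tested genes 4.14% passed (median 0.08). Mme (neprilysin), a peptide-splitting enzyme, rose from 0.173 and 0.0462 FPKM to 6.84 and 4.33 (2.55, limma adjusted p = 0.00693), but it too passed the filter only through the type III libraries. Enpp2 (autotaxin), the secreted relative of Enpp1 that makes lysophosphatidic acid, rose from 81.5 and 42.8 FPKM to 421.7 and 314.2 (2.60, limma adjusted p = 0.00254). Without Mme, Enpp2 was the only gene of this list to pass as higher here. Enpp2 was also the only gene of these 5 lists other than Bst1 to pass between type I and type II ECs, with 277.7 and 229.3 FPKM in the latter (2.08, limma adjusted p = 0.0434), and none passed between the Selp+ subsets. Of all tested genes, 0.393% and 0.222% passed in these comparisons. Ece1, Ace and Adam10, which were the most abundant others, had log2 differences of 0.63, 0.19 and 0.53 and did not pass.

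**Figure D5:**
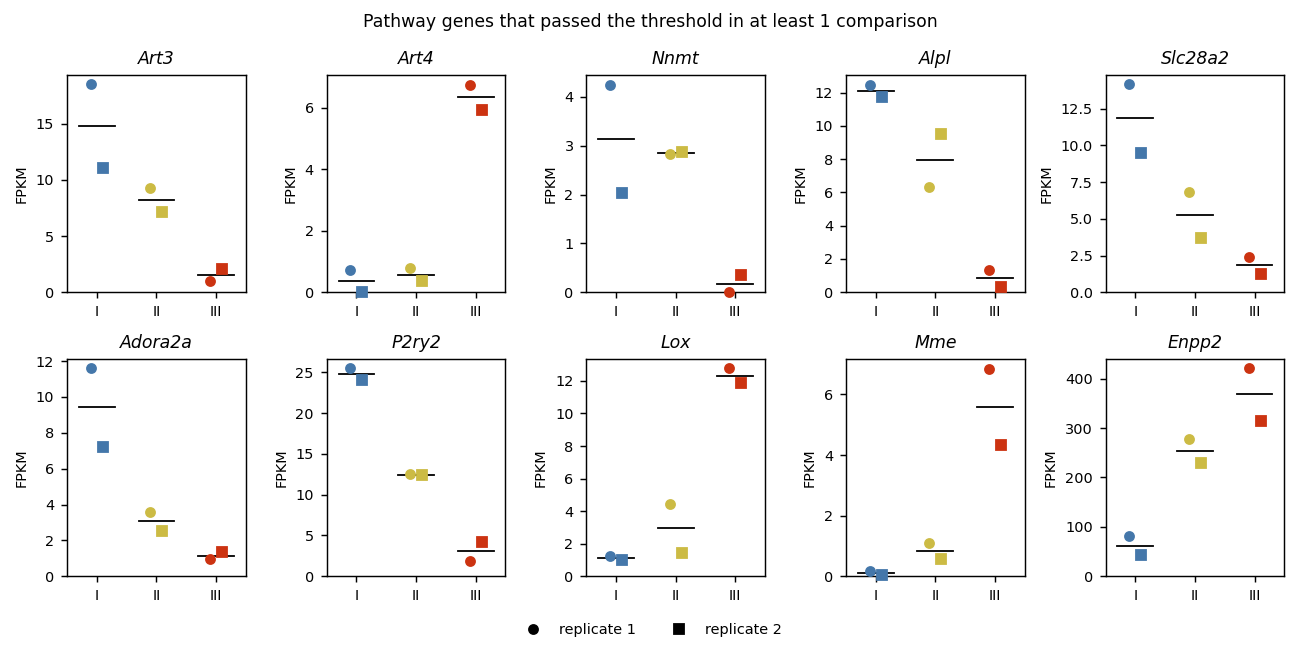
FPKM of the 10 genes of the 5 pathway lists, other than Bst1, that passed the threshold in at least 1 comparison, in each library by subset, on linear axes from 0. Lines are means of 2 libraries, circles replicate 1 and squares replicate 2. Art3, Nnmt, Alpl, Slc28a2, Adora2a and P2ry2 are lowest in type III ECs, and Art4, Lox, Mme and Enpp2 are highest there. Art4, Mme and Nnmt passed the filter on low values only through the subsets where they are high.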

How the data were processed

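RNA-seq of 2 libraries for each of 3 sorted subsets was used, 6 in all, grouped by the surface markers in the sample labels. The authors trimmed paired-end reads, mapped them to mm9 with TopHat2 2.0.10 and deposited FPKM per gene from Cufflinks 2.1.1 for each library on its own, with interval bounds (versions from the submitters' processing notes, which also name CASAVA 1.8 and Cuffdiff). The annotation and strand setting are not given in the sources used here. Reads of overlapping genes cannot be separated in these tables.

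Of 24552 rows, 95 belonged to spike-ins and reporters and were not used. Estimated fragments were read back from the intervals as if these held counting error alone, and 55.0% to 58.1% of estimates under 20 were whole within 0.02, so no count test was run. The deposited FPKM were analysed as log2(FPKM + 1) in limma 3.58.1 (R 4.3.3; lmFit, and eBayes with its trend option) on 11717 genes, with all 6 libraries in 1 fit and no rescaling; Cuffdiff, the study's test, needs alignments. The tests were two-sided, with Benjamini-Hochberg adjustment and a threshold of 0.05. The study's Cuffdiff list for type I against type III ECs holds Entpd1, Adk, Anpep, Enpep and Loxl4, which did not pass here. It also holds Bst1, Alpl, Adora2a, P2ry2, Slc28a2, Lox, Mme and Enpp2, which passed. It does not hold Art3, Art4 or Nnmt, which also passed. limma weighs genes by their spread, not by depth. The scripts were tested on simulated data with capped noise and differences larger than those of Entpd1, Nt5e and Aoc3. That test does not show how well differences of their size are found. The members and lists were chosen with earlier results of these data known. All members were named. Genes of a list were named where they passed, with up to 3 of the most abundant others and all receptors above the filter; beside Bst1, the only member to pass, the 5 most correlated genes were taken. Promoters are from RefSeq, and proteins were not used here. Other pseudocounts, filters, scalings and fits were tried, and each library was left out in turn.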

Additional observations from a re-analysis of the deposited data

Results flagged for a closer look

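The tables hold 3 rows for reporter sequences that no comparison used. The row for a red fluorescent reporter (RGC-mRFP) held signal above the level of 3 estimated fragments in these wildtype mice: 18.246 and 1.826 FPKM in the type I libraries, 23.709 and 5.31 in the type II libraries, and 28.275 and 3.226 in the type III libraries. Replicate 1 was the higher library in every subset, as it was for Cd38. A green reporter row (RGC-GFP) passed that level in type III replicate 2 alone, at 2.368 FPKM. The cause was not tested.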

How the results depend on the processing

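Bst1 passed in all 16 alternatives between type III and type I ECs (log2 difference 4.24 to 5.12, limma) and in 15 of 16 between type II and type I ECs (2.45 to 3.27; 2.52 to 2.84 over the fits without a library), the exception being the fit without type II replicate 2, at 2.52. Between the Selp+ subsets it passed in 4 of 16 (1.61 to 1.91; 1.66 to 1.91 without a library): at 1.78 with FPKM of at least 5, with the replicate block and without either type I library. The enzymes that passed between type III and type I ECs went from 1 to 2, with Entpd1, under rescaling to a fixed sum, median-ratio scaling, quantile normalization and the block, and ran from 1 to 2 over the fits without a library; between type II and type I ECs those ran from 0 to 1, and between the Selp+ subsets from 0 to 1, with 1 under FPKM of at least 5 and under the block. Cd38, never passing, turned sign only where a library was left out: to 0.23 and 0.28 (from -0.95 up), to 0.06 and 0.30 (from -0.82 up), and to 0.25 and 0.54 (from -0.68 up) in the 3 comparisons. In each fit without a library, the lone library of its subset was assumed to vary like the other subsets. Nt5e and Aoc3 kept their direction and passed in none. With FPKM of at least 5, Nt5e was not tested, and Enpp1 has values only without a filter (limma, adjusted p from 0.764 to 0.988); that fit left out genes at 0 in every library.

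All genes that passed between type III and type I ECs, 485, were 317 without a filter and 971 with the block, and 233 to 425 without a library (233 without type III replicate 1, 247 without its replicate 2, 315 without type I replicate 2). Between type II and type I ECs the 46 were 12 without a filter, 97, 95 and 103 under the 3 scalings, 183 with the block, 15 without the trend, 29 with only the libraries compared, and 12 to 46 without a library (12 without type II replicate 2, 19 without type I replicate 2). Between the Selp+ subsets the 26 were 0 without a filter, 109, 84 and 90 under the 3 scalings, 229 with the block, 10 without the trend, 7 with only the libraries compared, and 5 to 47 without a library (47 and 42 without type I replicates 1 and 2, 5 without replicate 1 of either Selp+ subset, 7 without type III replicate 2). Unadjusted p was under 0.05 for 1170 genes there. Of those 26, 11 were higher, and 18, 23 and 22 under the scalings, which moved the median of all genes from 0.135 to -0.061, 0.011 and -0.001. Of the 46, 38 were higher, and 66 and 73 under median-ratio and quantile scaling. The cause was not tested. The labels share replicate numbers 1 and 2 between subsets but do not say what they mark; deviations of like-numbered libraries correlated at 0.199, 0.306 and 0.180 over genes, and the numbers were not taken as pairs. Few fragments limit Nt5e and Enpp1.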
